A study of Mus musculus with 16 samples.

Results

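The genes described here encode the nuclear subunits of respiratory complexes II to V, the part of oxidative phosphorylation that follows complex I. Members were taken by symbol. They were 29 listed genes of complexes II, III and IV with the carrier cytochrome c (Cycs), and every gene whose symbol begins with Atp5, each with a mean of at least 50 reads over the 16 libraries. The rule gave 46 of the 24454 genes in the count table, which were 4 genes of complex II, 9 of complex III, Cycs, 15 of complex IV and 17 of complex V. All 46 were among the 15487 genes kept for testing. The 6 listed subunits of these complexes that are encoded in mitochondrial DNA were not analysed here.

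Complex II (succinate dehydrogenase) and complex III (the cytochrome bc1 complex) pass electrons from the citric acid cycle and from ubiquinol to cytochrome c, complex IV (cytochrome c oxidase) passes them on to oxygen, and complex V (ATP synthase) uses the proton gradient built by complexes I, III and IV to make ATP. Skeletal muscle fibres carry tissue forms of several complex IV subunits, and slow oxidative fibres hold more mitochondria than fast glycolytic ones. AICAR is a compound that cells convert to an AMP analogue which activates the energy sensor AMPK, and AMPK activity is linked to the transcription of mitochondrial genes through the co-activator PGC-1α.

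RNA came from gastrocnemius muscle of 16 mice aged 3 months. HSALR mice are a model of myotonic dystrophy type 1 that carries, in homozygous form on the FVB/N strain, a human skeletal actin transgene (HSA) with a long CTG repeat, from line LR20b, so that the repeat RNA is made in skeletal muscle. Control mice were FVB/N mice without the transgene. The 4 groups were 3 control mice labelled CTRL (called vehicle here, since the labels do not say what these mice received), 3 control mice given AICAR at 500 mg/kg for 7 days, 5 HSALR mice labelled CTRL, and 5 HSALR mice given the same AICAR treatment. Each mouse gave 1 library. Values per mouse are listed in the order S445, S446 and S450 for control vehicle, S447, S448 and S449 for control AICAR, S451, S452, S453, S458 and S459 for HSALR vehicle, and S454, S455, S460, S462 and S463 for HSALR AICAR.

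The libraries held 64890014 to 81987726 reads on genes, with a median of 73021286. Levels are given as TMM-normalised CPM (reads of a gene relative to the library total, scaled by the trimmed mean of M-values), and differences as log2 fold changes with their standard errors (SE) from edgeR's quasi-likelihood test over all 16 mice, adjusted by the Benjamini-Hochberg method over all 15487 genes, with a threshold of 0.05. The 7 muscle fibre markers summed to between 109220 and 165720 CPM in every library. Krt14, a keratin of the epidermis, exceeded 1 CPM in 6 libraries, which were S450, S448 and 4 of the 5 HSALR vehicle libraries (S452, S453, S458 and S459), and in no HSALR AICAR library. RNA from a whole muscle cannot tell fewer fibres or cells of a type from less RNA in each of them.

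Per kilobase of annotated gene, the members covered a wide range of levels. Atp5b, the catalytic β subunit of ATP synthase, stood highest with a mean of 1719 CPM per kb in control vehicle muscle. Cox6a2, the muscle form of complex IV subunit VIa, followed with 1143 CPM per kb, and Atp5a1, the α subunit of ATP synthase, with 1074 CPM per kb. The lowest levels were those of Cox4i2, the form of subunit IV that predominates in lung, with 2.13 CPM per kb, and of Atp5g2, one of the genes for the c subunit of the ATP synthase ring, with 2.91 CPM per kb. The non-muscle forms Cox8a and Cox6a1 stood at 49.3 and 33.2 CPM per kb, far below their muscle counterparts Cox8b at 687 CPM per kb and Cox6a2. Complex II genes lay between 258 CPM per kb for Sdhd and 450.04 CPM per kb for Sdhb.

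**Figure D1:**
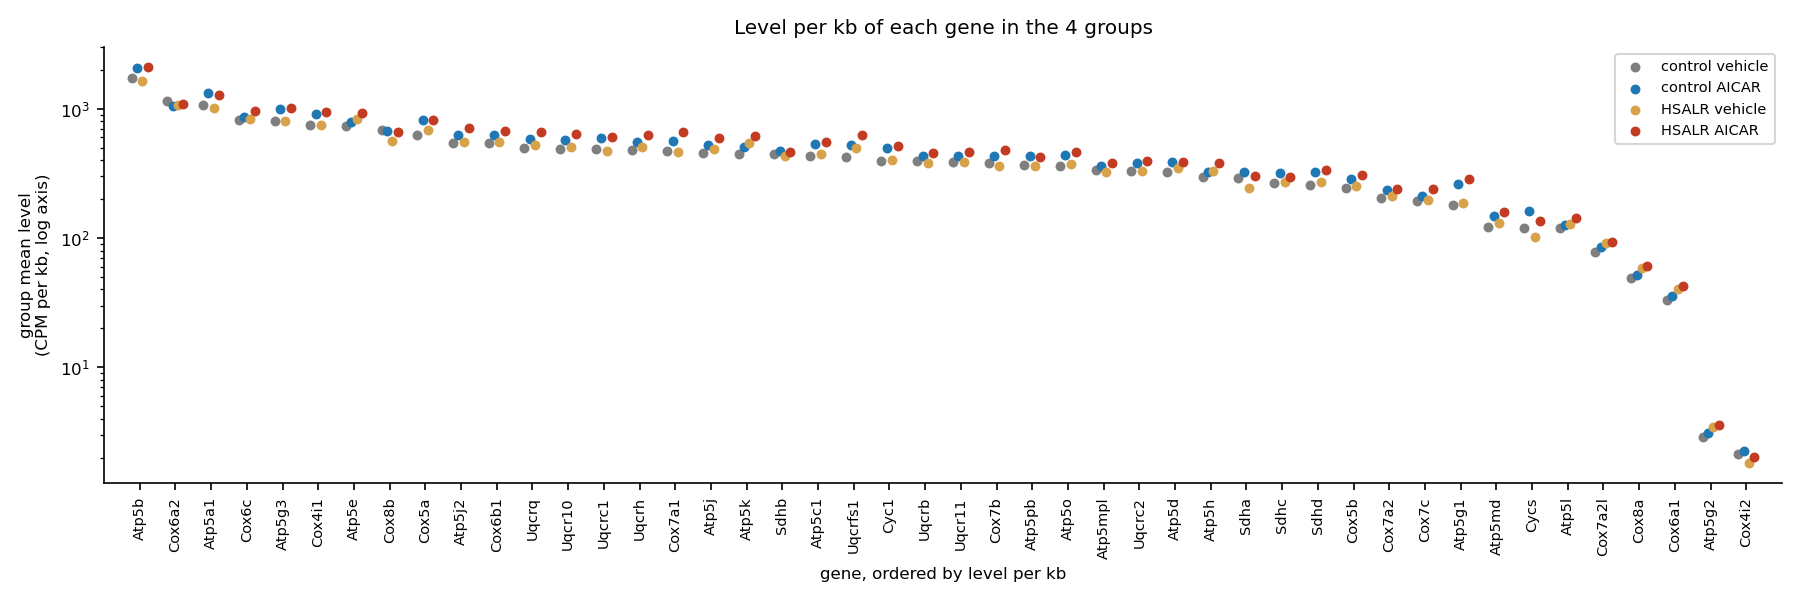
Mean level of each of the 46 genes in the 4 groups, in CPM per kb of gene on a log axis, with genes ordered by their level in control vehicle muscle. The groups lie close together for each gene, while the genes span from 2.13 CPM per kb for Cox4i2 to 1719 CPM per kb for Atp5b.

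The promoters of 35 of the 46 genes were found in the RefSeq table of GRCm38.p6, as 38 sequences of 300 bases from 250 bases before the annotated start to 50 bases after it. Promoters of 5 genes are shown. Atp5g1, Cycs and Cox7a1 had the largest AICAR differences in HSALR muscle for complexes V, III with its carrier, and IV, and Atp5g3 and Sdhd hold the binding element of the oestrogen-related receptors. Atp5g1 lies at chr11:96075582-96075881 on the minus strand, Cycs at chr6:50566520-50566819 on the minus strand, Cox7a1 at chr7:30183921-30184220 on the plus strand, Atp5g3 at chr2:73911277-73911576 on the minus strand and Sdhd at chr9:50603800-50604099 on the minus strand. Each sequence is written 5′ to 3′ in the direction of the gene. Capitals mark a match to TCAAGGTCA (the element of the oestrogen-related receptors, ERR) in Atp5g3 and Sdhd and to GCATGCGC (the core of the NRF1 site) in Cycs, on either strand.
Atp5g1: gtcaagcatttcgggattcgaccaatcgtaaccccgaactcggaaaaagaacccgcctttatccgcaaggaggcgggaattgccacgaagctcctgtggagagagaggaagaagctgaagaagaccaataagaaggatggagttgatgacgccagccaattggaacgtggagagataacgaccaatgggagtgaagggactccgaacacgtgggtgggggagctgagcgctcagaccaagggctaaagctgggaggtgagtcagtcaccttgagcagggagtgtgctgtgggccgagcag
Cycs: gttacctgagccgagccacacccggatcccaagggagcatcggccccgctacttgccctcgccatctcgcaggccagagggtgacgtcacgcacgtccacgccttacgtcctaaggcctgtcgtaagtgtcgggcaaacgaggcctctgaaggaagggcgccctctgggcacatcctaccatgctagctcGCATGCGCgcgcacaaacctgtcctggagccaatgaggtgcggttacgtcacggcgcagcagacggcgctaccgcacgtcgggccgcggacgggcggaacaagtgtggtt
Cox7a1: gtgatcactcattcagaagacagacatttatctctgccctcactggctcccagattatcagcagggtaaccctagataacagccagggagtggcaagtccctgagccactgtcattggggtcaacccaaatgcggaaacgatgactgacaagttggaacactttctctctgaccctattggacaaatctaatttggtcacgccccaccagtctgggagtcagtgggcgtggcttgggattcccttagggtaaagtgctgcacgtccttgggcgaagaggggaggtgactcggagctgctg
Atp5g3: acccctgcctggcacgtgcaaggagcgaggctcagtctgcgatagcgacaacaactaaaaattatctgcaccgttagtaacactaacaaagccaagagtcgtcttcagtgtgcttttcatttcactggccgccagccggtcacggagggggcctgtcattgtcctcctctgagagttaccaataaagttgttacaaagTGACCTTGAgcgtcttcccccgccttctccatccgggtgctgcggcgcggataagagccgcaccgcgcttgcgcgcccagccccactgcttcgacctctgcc
Sdhd: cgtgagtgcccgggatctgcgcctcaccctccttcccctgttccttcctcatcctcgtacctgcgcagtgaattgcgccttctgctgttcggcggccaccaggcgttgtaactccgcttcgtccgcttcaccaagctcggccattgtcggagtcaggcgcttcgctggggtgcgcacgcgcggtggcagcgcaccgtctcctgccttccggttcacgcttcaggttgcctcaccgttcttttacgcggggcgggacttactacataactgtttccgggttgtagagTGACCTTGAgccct

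The ERR element was in 2 of the 38 member promoters (5.26%), those of Atp5g3 and Sdhd, and in 0.423% of the 32851 promoters of the table. The NRF1 core was in 8 (21.1%, against 2.71% of all promoters), which were those of Atp5g2, Atp5k, Atp5l, Cox6a1, Cycs, Sdhb, Uqcr11 and Uqcrc1. CCGGAAGT, a site of ETS factors such as GABP, was in 4 (10.5%, against 3.89%), those of Atp5h, Cox8a, Uqcr11 and Uqcrh. These matches describe letters in a short window and are not evidence that a factor was bound. No match to these 3 motifs was in the windows of Atp5g1, Cox7a1 and Sdha. The Sdha window is not shown, although Sdha had the largest AICAR difference of complex II in HSALR muscle.

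The question put to the treated mice was whether AICAR moved these transcripts in each genotype. After AICAR, many transcripts of the complexes were more abundant in both genotypes, and no member was called lower. In HSALR muscle, 36 of the 46 genes rose, none fell and 10 did not pass the threshold, where 13.7% of all genes tested rose and 13% fell. In control muscle, 17 rose and none fell, where 8.4% of all genes rose and 4.77% fell. The median log2 fold change over the 46 genes was 0.27 in HSALR and 0.21 in control muscle, and the median over all genes was -0.020 and -0.0084. The fitted change was above 0 for all 46 genes in HSALR mice and for 44 in control mice, with Cox6a2 and Cox8b the 2 below. Cox6a2 stood at 749, 782 and 729 CPM in control vehicle and 728, 678 and 688 CPM in control AICAR mice, so that all 3 AICAR mice lay below all 3 vehicle mice, and its difference of -0.11 ± 0.087 (SE, adjusted p = 0.439) did not pass. The control comparison rested on 3 mice against 3, and its count was 7 without the vehicle mouse S446, 8 without the AICAR mouse S448 and 11 without the AICAR mouse S447, where 6.29%, 5.94% and 7.21% of all genes rose. Fitted on the 6 control mice alone, 4 genes passed, where 5.11% of all genes rose. In control muscle 9 passed with upper-quartile scaling and 8 with library-size scaling, where 6.1% and 5.91% of all genes rose. Scaled to the single gene Tbp, 3 genes passed in HSALR muscle, where 4.5% of all genes rose, with the median of all genes at -0.13 and that of the members 0.29 above it. Without the 6 libraries with Krt14 above 1 CPM, which left 1 HSALR vehicle mouse and 2 mice in each control group, 4 genes passed in HSALR and 2 in control muscle, and the medians were 0.33 and 0.18. In these fits 2.78% and 3.15% of all genes rose, so that calls were fewer over all genes too, and the spread of the lone HSALR vehicle mouse was taken to be that of the other groups.

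Summed over its genes, complex V separated the mice by treatment. In control vehicle mice the 17 genes summed to 10680.00, 9385 and 10311 CPM, and in control AICAR mice to 12405, 12332 and 11924 CPM. In HSALR vehicle mice they summed to 9728, 10279, 9240.5, 10169 and 10338 CPM, and in HSALR AICAR mice to 12332, 12454, 11807, 13212 and 12581 CPM. The 8 vehicle mice lay at 9240.5 to 10680.00 CPM and the 8 AICAR mice at 11807 to 13212 CPM, with no overlap. As shares of the counts, without TMM scaling, the control groups nearly met, with the highest vehicle mouse at 1.0788% and the lowest AICAR mouse, S449, less than 0.01 percentage points above it, while the HSALR groups lay at 0.961 to 1.0598% and 1.1635 to 1.27%. The ratio of the group means, AICAR over vehicle, was 1.25 in HSALR and 1.21 in control mice.

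The same ratio was 1.24 in HSALR and 1.19 in control mice for complex III, where the vehicle mice of both genotypes summed to 3326 to 3875 CPM and the AICAR mice to 3989.9 to 4805 CPM. For complex IV it was 1.18 and 1.11, and for complex II 1.17 and 1.14. In TMM-scaled CPM the HSALR groups did not overlap for complexes II and IV, at 1667 to 1892 against 2049 to 2328 CPM and 3464 to 4055 against 4099 to 4584 CPM. These sums are given without a test. Together the 46 genes took 2.01 ± 0.15% of the counts in control vehicle mice, 2.302 ± 0.234% in control AICAR mice, 2.003 ± 0.0794% in HSALR vehicle mice and 2.34 ± 0.0836% in HSALR AICAR mice (SD, n = 3, 3, 5 and 5). As such shares, without TMM scaling, the control groups overlapped, at 1.84 to 2.097% with vehicle and 2.03 to 2.47% with AICAR for the 46 genes and at 0.331 to 0.379% and 0.361 to 0.4498% for complex III, with S449 the lowest AICAR mouse. They also overlapped for complex II, at 0.182 to 0.208% and 0.196 to 0.238%. For complex IV they lay at 0.35603 to 0.399% and 0.35572 to 0.444%, with S449 below all 3 vehicle mice. The HSALR groups did not overlap, at 1.88 to 2.103% and 2.23 to 2.435% for the 46 genes, and for complex II they lay at 0.173 to 0.1972% and 0.1975 to 0.224%. For complex IV they overlapped, at 0.3601 to 0.423% with vehicle and 0.404 to 0.446% with AICAR.

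**Figure D2:**
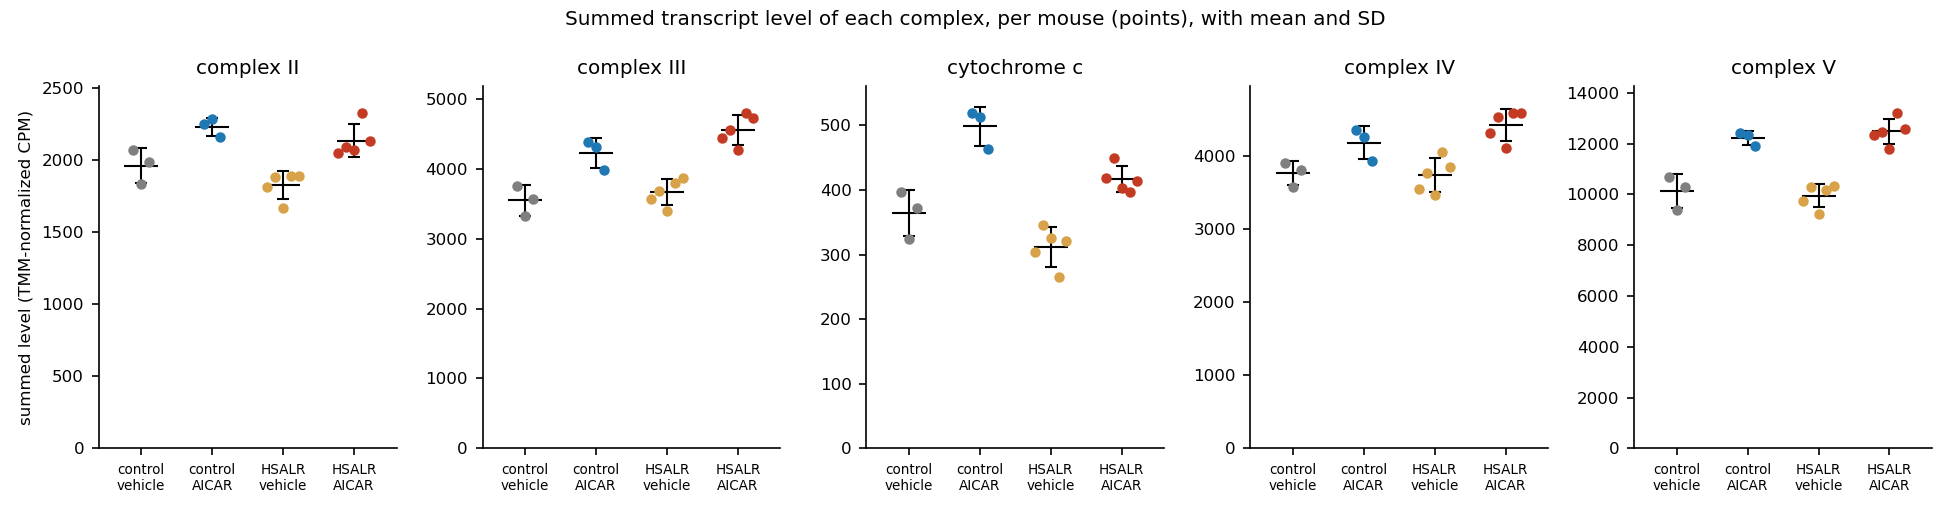
Summed level of the genes of complex II, III, IV and V and of Cycs in each mouse (points), in TMM-normalized CPM, with the mean and SD of each group. For complex V the 8 vehicle mice lie at 9240.5 to 10680.00 CPM, below the 8 AICAR mice at 11807 to 13212 CPM.

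In complex II, 2 of the 4 genes rose in each genotype. Sdha, the flavoprotein that oxidises succinate, stood at 689.7, 725, 648, 692 and 732 CPM in HSALR vehicle mice and at 812, 838, 871, 957 and 831 CPM in HSALR AICAR mice. The groups did not overlap, and the log2 fold change was 0.31 ± 0.055 (SE, adjusted p = 0.00100). Sdhd, a membrane anchor of the complex, rose by a similar amount, 0.30 ± 0.053 (SE, adjusted p = 0.000780). The iron-sulphur subunit Sdhb, at 0.094 (adjusted p = 0.336), and the other anchor Sdhc, at 0.13 (adjusted p = 0.0999), did not pass, and Sdhc was the gene nearest to the threshold among those not called.

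In control muscle Sdhd had the largest AICAR difference of complex II. Its levels were 348, 311 and 335 CPM with vehicle and 419, 432 and 407 CPM with AICAR, without overlap, and the log2 fold change was 0.34 ± 0.068 (SE, adjusted p = 0.00477). Sdhc also rose, by 0.27 ± 0.072 (SE, adjusted p = 0.0216), and was the single member called in control and not in HSALR muscle. Whether its AICAR effect differed between genotypes was tested directly and did not pass, with a difference of -0.14 ± 0.091 (SE, adjusted p = 0.486).

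All 9 complex III genes rose in HSALR muscle, with log2 fold changes from 0.25 for Uqcr11 to 0.36 for Cyc1, the cytochrome c1 subunit. Adjusted p-values ran from 0.000304 for the core protein Uqcrc1 to 0.00714 for Uqcr11. In control muscle 3 of the 9 rose, namely Cyc1, at 0.32 (adjusted p = 0.0121), the Rieske iron-sulphur protein Uqcrfs1, at 0.31 (adjusted p = 0.00898), and Uqcrc1, at 0.28 (adjusted p = 0.0158). The other 6 had fitted changes from 0.14 for Uqcrb to 0.24 for Uqcr10.

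Cycs, the mobile carrier between complexes III and IV, rose in both genotypes. Its levels were 303, 345, 325, 265 and 320.4 CPM in HSALR vehicle and 419, 449.3, 402, 397 and 414 CPM in HSALR AICAR mice. In control mice they were 396, 325 and 372 CPM with vehicle and 519, 512 and 464 CPM with AICAR. Vehicle and AICAR mice did not overlap in either genotype, and the log2 fold changes were 0.42 ± 0.072 (SE, adjusted p = 0.000702) in HSALR and 0.45 ± 0.093 (SE, adjusted p = 0.00555) in control muscle. The genome holds processed copies of Cycs, and the authors' mapping kept 1 location for reads with several equal hits, so a part of its reads may have been counted elsewhere.

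Of the 15 complex IV genes, 10 rose in HSALR muscle and 2 in control muscle. Cox7a1, the muscle form of subunit VIIa, changed most in HSALR mice, from 167, 172, 152, 184 and 178 CPM to 239, 247, 228, 247 and 243 CPM. Every AICAR mouse lay above every vehicle mouse, and the log2 fold change was 0.50 ± 0.068 (SE, adjusted p = 0.000123). In control mice Cox7a1 stood at 196, 158 and 169 CPM with vehicle and 222, 214 and 185 CPM with AICAR. These values overlapped, and the difference of 0.25 ± 0.088 (SE, adjusted p = 0.0720) did not pass.

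Cox5a, a subunit on the matrix side of the complex, had the largest complex IV difference in control mice, where it went from 433, 403 and 458.6 CPM to 562, 577 and 558 CPM. The groups did not overlap, and the log2 fold change was 0.39 ± 0.071 (SE, adjusted p = 0.00257), beside 0.25 ± 0.055 (SE, adjusted p = 0.00405) in HSALR muscle. Cox4i1, the widespread form of subunit IV, was the other gene called in control mice, at 0.27 (adjusted p = 0.0335), and it also rose in HSALR mice, at 0.34 (adjusted p = 0.000918). The remaining genes that rose in HSALR muscle were Cox7b, by 0.42, Cox5b, by 0.30, Cox6b1, by 0.29, Cox7c, by 0.27, Cox8b, by 0.22, Cox6c, by 0.20, and Cox7a2, by 0.18, with adjusted p-values from 0.000264 to 0.0246.

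The 5 complex IV genes not called in HSALR muscle were isoform genes or a supercomplex factor. Being an isoform gene did not set them apart, since Cox7a1, Cox4i1, Cox8b and Cox7a2 were called higher there. Cox6a2 differed by 0.035 ± 0.067 (SE, adjusted p = 0.746), with a 95% interval of -0.11 to 0.18. Cox7a2l, which is known for joining complexes III and IV into supercomplexes, differed by 0.035 ± 0.046 (SE, adjusted p = 0.623), with an interval of -0.064 to 0.13. The intervals of the 3 non-muscle forms were -0.16 to 0.25 for Cox8a, -0.14 to 0.27 for Cox6a1 and -0.23 to 0.55 for Cox4i2, the last at a mean of 1.33 CPM. An increase as large as the median of the members lies outside the intervals of Cox6a2, Cox7a2l, Cox8a and Cox6a1 and inside that of Cox4i2.

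Complex V had 14 of 17 genes called higher in HSALR and 9 in control muscle. Of the 5 genes of the F1 head, which carries the catalytic sites, 4 rose in each genotype, and Atp5e, the ε subunit, did not pass in either. Of the 12 genes of the Fo part and the stalks, 10 rose in HSALR and 5 in control muscle. The catalytic subunit Atp5b rose by 0.38 ± 0.054 (SE, adjusted p = 0.000184) in HSALR mice and by 0.28 ± 0.070 (SE, adjusted p = 0.0169) in control mice, which is a fold of 1.297 and 1.21.

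Atp5g1, a gene for the c subunit that forms the proton-driven ring, had the largest AICAR difference of all 46 genes in both genotypes. Its levels were 163, 157, 151, 169.6 and 168 CPM in HSALR vehicle and 247, 258, 220.4, 249.9 and 259 CPM in HSALR AICAR mice. In control mice they were 169, 145 and 159 CPM with vehicle and 232, 221 and 228 CPM with AICAR. All 8 AICAR mice lay above all 8 vehicle mice, and the log2 fold changes were 0.61 ± 0.056 (SE, adjusted p = 3.32e-06) and 0.53 ± 0.072 (SE, adjusted p = 0.000387), a fold of 1.53 in HSALR and 1.44 in control mice.

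The c subunit is made from 3 genes whose mature proteins are the same, and their fitted changes lay apart. Atp5g3, the most abundant of them per kilobase, rose by 0.32 ± 0.057 (SE, adjusted p = 0.000932) in HSALR and 0.29 ± 0.074 (SE, adjusted p = 0.0171) in control muscle, while Atp5g2 differed by 0.040 (adjusted p = 0.795) and 0.088 (adjusted p = 0.690), at 1.81 to 2.59 CPM over all mice. Atp5l, at 0.17 (adjusted p = 0.107), was the third complex V gene besides Atp5e and Atp5g2 that did not pass in HSALR muscle. In that comparison the called gene nearest to the threshold was Atp5k, at 0.19 (adjusted p = 0.0416). In control muscle the nearest genes were Atp5j, called at 0.21 (adjusted p = 0.0451), and Atp5md, not called at 0.27 (adjusted p = 0.0554).

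**Figure D3:**
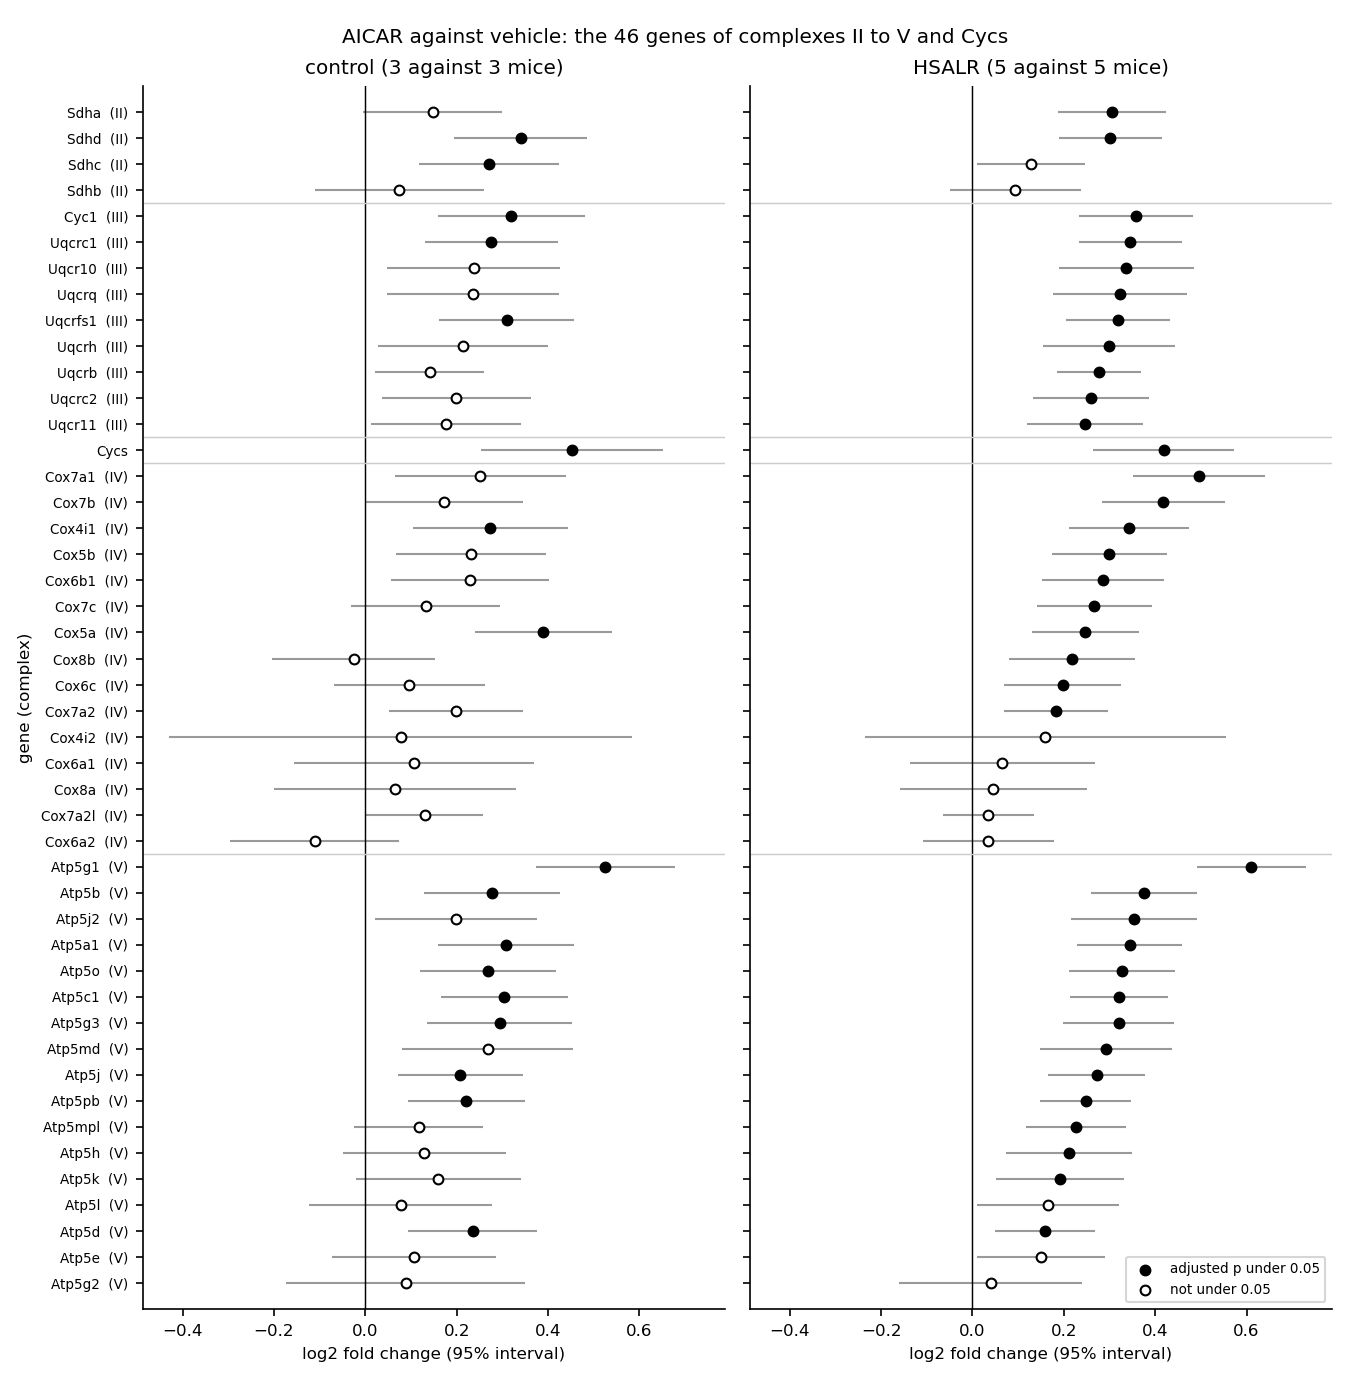
log2 fold change of AICAR against vehicle for the 46 genes, with 95% intervals, in control mice (left) and HSALR mice (right), grouped by complex. Filled points have an adjusted p under 0.05, which holds for 17 genes in control and 36 in HSALR mice, and Atp5g1 lies farthest to the right in both.

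Counts of calls differ between the genotypes, and so do their numbers of mice, so the difference between the AICAR effects was tested itself. No member passed. At an unadjusted p under 0.05 there were 3 of 46, and DESeq2 and limma with voom also called 0, while edgeR called 107 of all genes tested (0.691%). The 3 were complex IV genes with larger fitted effects in HSALR mice, Cox7b with a difference of 0.25 ± 0.10 (SE, adjusted p = 0.278), Cox8b with 0.24 ± 0.11 (SE, adjusted p = 0.292) and Cox7a1 with 0.24 ± 0.11 (SE, adjusted p = 0.317). In complex II the smallest p was that of Sdha, 0.16 ± 0.090 (SE, adjusted p = 0.433). In complex III it was that of Uqcrb, 0.14 ± 0.071 (SE, adjusted p = 0.378), and in complex V that of Atp5j2, 0.16 ± 0.10 (SE, adjusted p = 0.511). Cox7b stood at 396, 360.5 and 390.1 CPM in control vehicle and 456.6, 436 and 399 CPM in control AICAR mice, and at 342, 364, 343, 383 and 378 CPM in HSALR vehicle and 443, 452.2, 471, 516 and 537 CPM in HSALR AICAR mice. Vehicle and AICAR mice did not overlap in either genotype, and the 2 genotypes overlapped in each treatment. Uqcrb, a small subunit of complex III, stood at 181, 193, 186, 192 and 198 CPM in HSALR vehicle and 217, 232, 224, 244 and 235 CPM in HSALR AICAR mice, without overlap. Scaled to Tbp, 0 of the 46 differences were above 0, beside 36 in the main fit. The Sdha, Uqcrb, Cox7b and Atp5j2 differences thus changed sign, as did those of Cox8b and Cox7a1. The median of the members was then -0.26 and that of all genes -0.32. Called in both genotypes were 16 genes, in HSALR alone 20, in control alone 1 and in neither 9, and these numbers do not show that 20 genes responded in one genotype only.

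The genotype comparison asked whether untreated HSALR muscle held other levels of these transcripts than control muscle, and few members differed. With vehicle, 3 of 46 genes were higher and 2 lower in HSALR muscle, where 15.4% of all genes tested were higher and 11.5% lower. The median log2 fold change was 0.035, against 0.0097 over all genes. Scaled to Tbp, 26 members were higher and none lower, where 32.6% of all genes were higher and 1.56% lower, with the median of all genes at 0.28 and that of the members 0.036 above it. Higher were Uqcrfs1, Cox7a2l and Atp5k, and lower were Sdha and Cox8b. The genotype and AICAR comparisons share mice, so their values for one gene are not independent.

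Sdha was lower in HSALR muscle. Its levels were 888, 775 and 841 CPM in control vehicle mice, against 689.7, 725, 648, 692 and 732 CPM in HSALR vehicle mice. The groups did not overlap, and the log2 fold change was -0.26 ± 0.064 (SE, adjusted p = 0.00700). With AICAR the means were 925 ± 10.7 CPM in control and 862 ± 57.2 CPM in HSALR mice (SD, n = 3 and 5), and the difference of -0.10 ± 0.064 (SE, adjusted p = 0.270) did not pass.

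Cox8b, the muscle form of subunit VIII, was also lower. It stood at 256, 236 and 256 CPM in control vehicle mice and at 196, 203, 189, 229 and 215 CPM in HSALR vehicle mice. All 5 HSALR mice lay below all 3 control mice, with a log2 fold change of -0.27 ± 0.074 (SE, adjusted p = 0.0130). With AICAR it stood at 257, 253 and 225 CPM in control and 226, 246, 219, 246 and 262 CPM in HSALR mice, which overlapped, and the difference was -0.030 ± 0.075 (SE, adjusted p = 0.808). Scaled to Tbp, the vehicle differences of Sdha and Cox8b were 0.022 and 0.0049, where the median of all genes was 0.28.

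Cycs was just outside the threshold with vehicle, at -0.23 ± 0.083 (SE, adjusted p = 0.0556), and just inside it with AICAR, at -0.26 ± 0.083 (SE, adjusted p = 0.0360). With AICAR the control mice lay at 519, 512 and 464 CPM and the HSALR mice at 419, 449.3, 402, 397 and 414 CPM, so that every HSALR mouse was lower. The fold was 0.856 with vehicle and 0.836 with AICAR, and the difference between these, which is the same quantity as the difference between the AICAR effects, was -0.034 ± 0.12 (SE, adjusted p = 0.923).

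Among the genes that were higher, Uqcrfs1 stood at 595, 504 and 583 CPM in control vehicle and 636, 656, 622, 666 and 694 CPM in HSALR vehicle mice. The groups did not overlap, and the log2 fold change was 0.22 ± 0.063 (SE, adjusted p = 0.0155). It was 0.23 ± 0.063 (SE, adjusted p = 0.0158) with AICAR, where the mice lay at 710.3, 699 and 676 CPM and 789, 807, 777, 871 and 838 CPM, again without overlap.

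Atp5k, subunit e of the membrane part of ATP synthase, was the other gene called in both comparisons. Its levels were 137, 125 and 133 CPM in control vehicle and 142, 159, 143, 175 and 168 CPM in HSALR vehicle mice. With AICAR they were 154, 150.2 and 136 CPM in control and 173, 191, 166, 190.1 and 179 CPM in HSALR mice. HSALR mice lay above control mice in both treatments, by 0.26 ± 0.076 (SE, adjusted p = 0.0201) and 0.29 ± 0.077 (SE, adjusted p = 0.0136). Cox7a2l was called with vehicle, at 0.24 ± 0.054 (SE, adjusted p = 0.00377), and missed the threshold with AICAR, at 0.15 (adjusted p = 0.0617).

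With AICAR, 4 genes were higher and 1 lower in HSALR muscle, where 12.2% of all genes were higher and 9.64% lower. Scaled to Tbp, 0 members passed by edgeR, with 1 at an unadjusted p under 0.05, where 4.4% of all genes were higher and 4.62% lower. The higher genes besides Uqcrfs1 and Atp5k were Atp5h, subunit d of the stator stalk, at 0.24 ± 0.075 (SE, adjusted p = 0.0318), and Atp5j, coupling factor 6, at 0.17 ± 0.058 (SE, adjusted p = 0.0487), and the lower gene was Cycs. Atp5e was the nearest gene not called, at 0.22 (adjusted p = 0.0536). In complex II the smallest p was that of Sdhc, -0.12 (adjusted p = 0.201), whose levels were 375, 390.03 and 367 CPM in control and 346, 341, 327, 376 and 350.1 CPM in HSALR AICAR mice, with overlap. In complex IV it was that of Cox7a1, 0.22 (adjusted p = 0.0615), with all 5 HSALR mice above the 3 control mice.

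These genotype values moved with gene length. The members are short, with a median length of 708 bases against 2883 bases for all genes tested, and the fold change of HSALR over control fell with length across the genes, with Spearman's rho of -0.26 with vehicle and -0.21 with AICAR over 15487 genes of the same libraries, and of -0.28 and -0.54 over the 46 members. Fitted with an offset for length, 12 members were lower and none higher with vehicle, with a median of -0.12, where 10.6% of all genes were lower and 13.5% higher under the same offset. With AICAR 3 members were lower and none higher, with a median of -0.032, where 9.25% of all genes were lower and 10.9% higher. With vehicle, Sdha, at -0.27 (adjusted p = 0.00688), and Cox8b, at -0.48 (adjusted p = 1.41e-05), were called lower with and without the offset. None of the higher genes was. Cycs, the longest member at 3059 bases, was at -0.26 (adjusted p = 0.0420) with AICAR under the offset. Also called lower there were Sdhc, at -0.21 (adjusted p = 0.0169), and Cox8b, at -0.18 (adjusted p = 0.0239), which did not pass without the offset. For AICAR against vehicle the same rho was -0.031 in control and 0.039 in HSALR mice over all genes, and 0.45 and 0.25 over the 46 members, so that the AICAR fold change rose with length among the members. With the offset 20 members were higher in control and 39 in HSALR mice and none was lower, where 9.45% and 15% of all genes were higher and 4.91% and 13.1% lower.

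**Figure D4:**
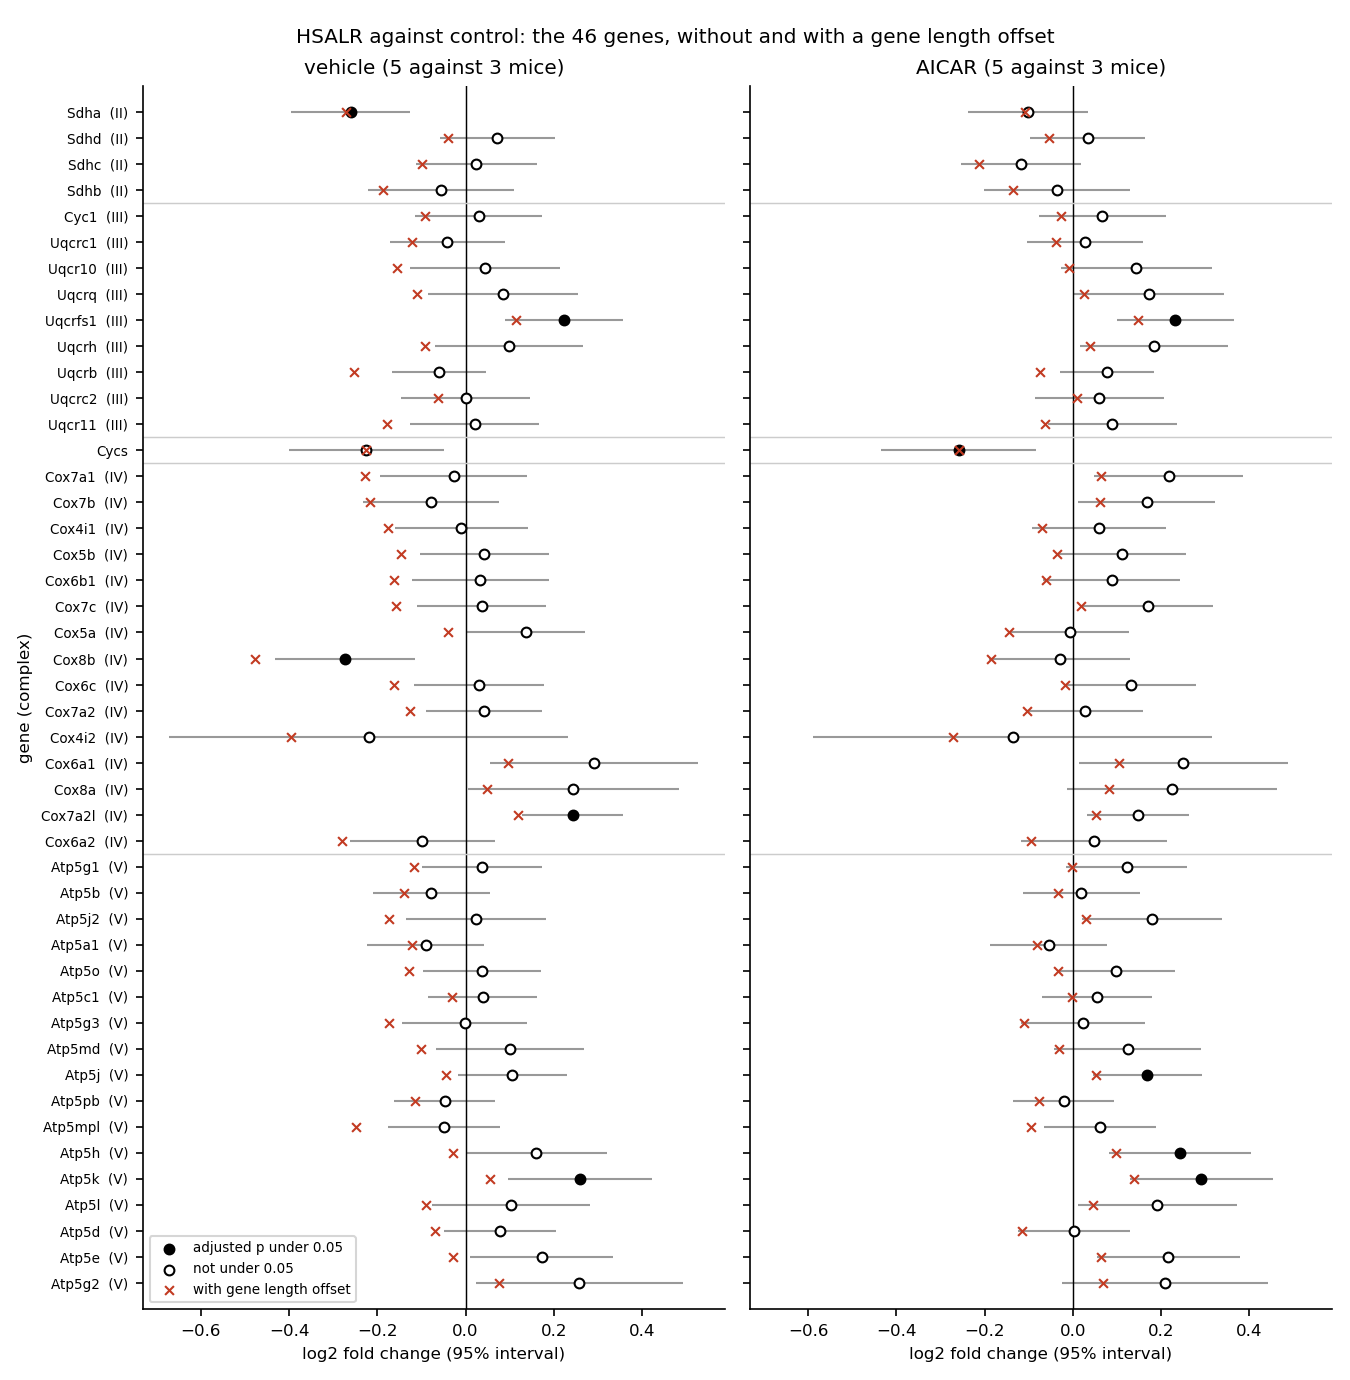
log2 fold change of HSALR against control for the 46 genes, with 95% intervals, with vehicle (left) and AICAR (right). Filled points have an adjusted p under 0.05 (5 genes in each panel), and crosses give the value with a gene length offset, which lies lower for most genes and leaves Sdha, Cox8b and Cycs nearly where they were or lower still.

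The calls also changed when single mice were left out. Within control vehicle mice, S446 was lowest in 35 of the 46 genes and S445 highest in 38, and within control AICAR mice S449 was lowest in 38. In HSALR groups S453 was lowest in 32 genes with vehicle and S460 in 34 with AICAR. Without S446, 1 gene was higher and 3 were lower in HSALR vehicle muscle, without S445, 3 were higher and none lower, and without S450, 2 were higher and 1 lower. With AICAR, no gene was higher and 1 lower without S449, 3 passed without S448, S454 or S455, and 2 passed without S462 or S463. Over all genes these fits called 11 to 12.4% higher and 6.98 to 9.32% lower with vehicle, and 8.39 to 10.7% higher and 6.94 to 7.9% lower with AICAR. Without the 6 Krt14 libraries 1 HSALR vehicle mouse was left, and its spread was taken to be that of the other groups. In that fit edgeR called no member with vehicle, with 3 at an unadjusted p under 0.05, where 4.14% of all genes were higher and 1.66% lower. With AICAR 2 members were higher, where 8.16% of all genes were higher.

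The share of one gene within its isoform family does not depend on library scaling, and 5 families were compared over the 4 contrasts, by a two-sided exact permutation test adjusted over the 20 tests. No share passed after adjustment, and the smallest p such a test can give is 0.1 for 3 mice against 3, 0.0179 for 5 against 3 and 0.00794 for 5 against 5. Cox7a1 made up 51.7, 50.95, 51.3, 52.7 and 52.9% of Cox7a1 and Cox7a2 reads in HSALR vehicle mice and 58.5, 57.6, 57.4, 56.2 and 56.8% in HSALR AICAR mice. The groups did not overlap and their means were 51.9 ± 0.869% and 57.3 ± 0.859% (SD, n = 5 each, exact permutation p = 0.00794, adjusted p = 0.0794). In control mice the means were 53.05 ± 1.95% with vehicle and 54.00 ± 0.995% with AICAR (n = 3 each, exact permutation p = 0.5, adjusted p = 0.526), with overlap. Between the genotypes with AICAR the Cox7a1 share was 3.31 percentage points higher in HSALR mice (exact permutation p = 0.0179, adjusted p = 0.0893, n = 5 and 3).

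The Atp5g1 share of the reads of the 3 c subunit genes, which did not pass after adjustment either, was 21.9, 20.5, 22.02, 21.96 and 21.8% in HSALR vehicle and 25.9, 25.7, 24.2, 24.5 and 25.9% in HSALR AICAR mice, and 21.3, 21.7 and 20.6% against 24.1, 22.95 and 24.9% in control mice. Vehicle and AICAR mice did not overlap in either genotype, with differences of 3.604 percentage points (exact permutation p = 0.00794, adjusted p = 0.0794, n = 5 and 5) and 2.81 percentage points (exact permutation p = 0.1, adjusted p = 0.214, n = 3 and 3).

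Cox8b took 91.2, 89.7 and 89.9% of Cox8a and Cox8b reads in control vehicle mice and 88.01, 85.8, 85.8, 85.6 and 88.1% in HSALR vehicle mice. Every HSALR mouse was lower, and the means were 90.3 ± 0.837% and 86.7 ± 1.29% (SD, n = 3 and 5, exact permutation p = 0.0357, adjusted p = 0.102). With AICAR the means were 89.8 ± 0.825% and 87.9 ± 0.554% (exact permutation p = 0.0179, adjusted p = 0.0893, n = 3 and 5), again without overlap. The Cox6a2 share was 97.7 ± 0.0733% in control and 97.02 ± 0.345% in HSALR vehicle mice (exact permutation p = 0.0357, adjusted p = 0.102, n = 3 and 5). Cox8a and Cox6a1 themselves, at 0.24 (adjusted p = 0.121) and 0.29 (adjusted p = 0.0645), did not pass. Cox4i2 stayed between 0.153 and 0.314% of Cox4i1 and Cox4i2 reads in every mouse. Cox7a2 was at 0.042 (adjusted p = 0.662) with vehicle and 0.028 (adjusted p = 0.783) with AICAR between genotypes. For these pairs of short genes the part of gene length in a share was not tested.

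**Figure D5:**
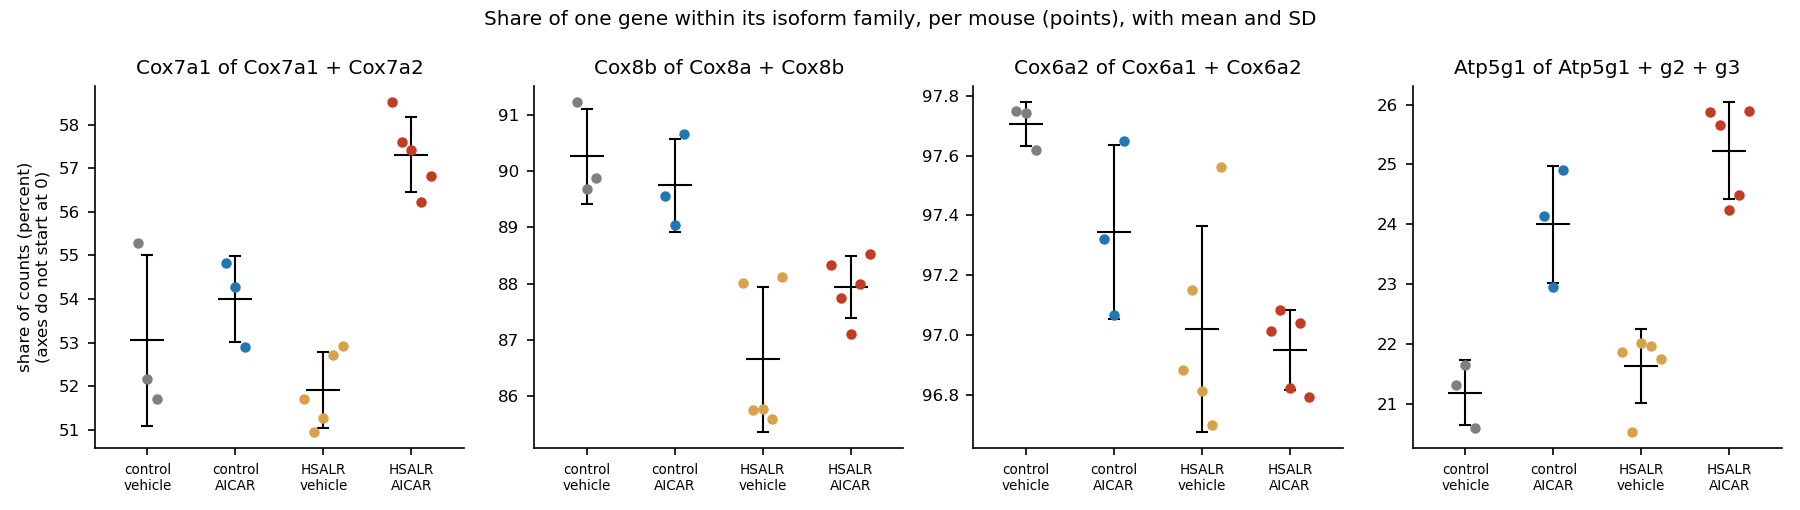
Share of the reads of an isoform family taken by Cox7a1, Cox8b, Cox6a2 and Atp5g1 in each mouse (points), in percent, with the mean and SD of each group, on axes that do not start at 0. The 5 HSALR AICAR mice lie at 56.2 to 58.5% for Cox7a1, above the other 11 mice, and both AICAR groups lie above both vehicle groups for Atp5g1.

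The isoform genes did not pass the threshold in the comparisons given next. In control mice the AICAR difference was -0.11 (adjusted p = 0.439) for Cox6a2, -0.026 (adjusted p = 0.883) for Cox8b, 0.065 (adjusted p = 0.786) for Cox8a and 0.11 (adjusted p = 0.622) for Cox6a1. It was 0.077 (adjusted p = 0.873) for Cox4i2, 0.20 (adjusted p = 0.0707) for Cox7a2 and 0.13 (adjusted p = 0.169) for Cox7a2l. Between genotypes with vehicle, Cox6a2 was at -0.10 (adjusted p = 0.388), Cox7a1 at -0.027 (adjusted p = 0.836), Cox4i1 at -0.0097 (adjusted p = 0.937) and Cox4i2 at -0.22 (adjusted p = 0.491). Of the c subunit genes, Atp5g1 was at 0.037 (adjusted p = 0.714), Atp5g2 at 0.26 (adjusted p = 0.0962) and Atp5g3 at -0.0023 (adjusted p = 0.985). With AICAR, Cox6a2 was at 0.047 (adjusted p = 0.6997), Cox8a at 0.23 (adjusted p = 0.162), Cox6a1 at 0.25 (adjusted p = 0.118), Cox4i1 at 0.060 (adjusted p = 0.584) and Cox4i2 at -0.14 (adjusted p = 0.683), while Atp5g1 was at 0.12 (adjusted p = 0.187), Atp5g2 at 0.21 (adjusted p = 0.186) and Atp5g3 at 0.024 (adjusted p = 0.830). The 5 HSALR AICAR mice lay above the 3 control AICAR mice for Cox6a1, and its values there were 20.04, 20.5 and 16.6 CPM in control and 22.4, 23.7, 21.2, 21.6 and 24.4 CPM in HSALR mice.

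Complex I, whose genes were listed for comparison, moved with AICAR in the same direction. Of 38 genes tested, 29 rose in HSALR and 11 in control muscle, none fell, and the medians were 0.24 and 0.19, where 13.7% and 8.4% of all genes rose. No complex I gene passed the test of the difference between the AICAR effects by edgeR, and none did so at an unadjusted p under 0.05. Between genotypes 5 of the 38 complex I genes were higher and none lower with each treatment, a share near the 15.4% and 12.2% of all genes that were higher with vehicle and with AICAR.

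Of 36 assembly factors of complexes II to V, 14 rose and 3 fell in HSALR muscle after AICAR, and 10 rose and none fell in control muscle, where 13.7% and 8.4% of all genes rose and 13% and 4.77% fell. Atpaf1, a chaperone of the F1 head, rose by 0.57 ± 0.051 (SE, adjusted p = 2.89e-06) in HSALR and 0.40 ± 0.065 (SE, adjusted p = 0.00128) in control mice, and its partner Atpaf2 by 0.23 ± 0.050 (SE, adjusted p = 0.00312) and 0.38 ± 0.065 (SE, adjusted p = 0.00158). Ttc19 and Uqcc1, which act in complex III assembly, rose in HSALR mice by 0.46 (adjusted p = 0.000340) and 0.33 (adjusted p = 0.000220). The 3 that fell were Coa3, at -0.18 (adjusted p = 0.0392), Cox16, at -0.15 (adjusted p = 0.0454), and Coa6, at -0.13 (adjusted p = 0.0448), all factors of complex IV. Other factors of complex IV rose in HSALR mice, so the complex did not move in 1 direction. Among them were Cox10, at 0.31 (adjusted p = 0.0018), Cmc2, at 0.28 (adjusted p = 0.00363), and Cox14, at 0.27 (adjusted p = 0.00358), with Cox20, Cmc1 and Taco1. Between genotypes with vehicle, 7 of the assembly factors were higher and 5 lower in HSALR muscle, near the shares of all genes, 15.4% higher and 11.5% lower, with Cox19 at 0.59 (adjusted p = 5.31e-05) and Cmc2 at -0.36 (adjusted p = 0.00149) as the largest in each direction.

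Of 18 regulators of mitochondrial genes, 6 rose and 1 fell in control muscle after AICAR, and 5 rose and 2 fell in HSALR muscle, where 8.4% and 13.7% of all genes rose and 4.77% and 13% fell. The 1 that fell in control muscle was Esrrg, from a mean of 38.7 to 21.8 CPM. The 2 that fell in HSALR muscle were Prkaa1, from 28.0 to 23.1 CPM, and Gabpb1, from 8.61 to 7.45 CPM. Between genotypes with AICAR, 7 regulators were lower in HSALR muscle and none higher, where 9.64% of all genes were lower. These were Ppara, at -1.16 (adjusted p = 0.000723), Ppargc1a, at -0.87 (adjusted p = 0.0132), Pprc1, at -0.53 (adjusted p = 0.0366), Prkaa2, at -0.32 (adjusted p = 0.0247), Esrra, at -0.23 (adjusted p = 0.0454), Tfb1m, at -0.23 (adjusted p = 0.0487), and Tfb2m, at -0.22 (adjusted p = 0.0108). With vehicle 1 regulator (Nrip1) was higher and 3 (Prkaa2, Tfb2m and Esrrg) were lower, where 15.4% of all genes were higher and 11.5% lower. Prkaa2 and Tfb2m were thus lower in HSALR muscle in both treatments. Ppargc1a, the gene of the co-activator PGC-1α, averaged 53.9 ± 2.46 CPM in control vehicle and 171 ± 52.02 CPM in control AICAR mice (SD, n = 3 each), and 55.9 ± 18.1 CPM in HSALR vehicle and 93.4 ± 18.1 CPM in HSALR AICAR mice (n = 5 each). It rose by 1.66 ± 0.27 (SE, adjusted p = 0.00113) in control and 0.74 ± 0.20 (SE, adjusted p = 0.0138) in HSALR mice, and the difference between these effects, -0.92 ± 0.33 (SE, adjusted p = 0.206), did not pass. Esrra, the receptor ERRα, rose by 0.28 and 0.20 (adjusted p = 0.0493 and 0.0372), and Tfb2m, a factor of mitochondrial transcription, by 0.21 and 0.18 (adjusted p = 0.0425 and 0.0137). Nrf1, at -0.12 (adjusted p = 0.188), and Tfam, at 0.036 (adjusted p = 0.662), did not pass in HSALR mice.

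Fibre type genes were read beside these values. None of Myh7, Myh2, Myh1 and Myh4, the myosin heavy chains of slow and fast fibres, passed for AICAR in either genotype. Between genotypes with vehicle, Myh1, of fast IIx fibres, was higher in HSALR muscle, at 1.52 ± 0.19 (SE, adjusted p = 4.08e-05), and Myh7, of slow fibres, was lower, at -1.37 ± 0.36 (SE, adjusted p = 0.0113). With AICAR, Myh1 was higher by 1.499 ± 0.19 (SE, adjusted p = 7.82e-05) and Myh4, of fast IIb fibres, was lower, at -0.67 ± 0.18 (SE, adjusted p = 0.0177), while Myh7, at -0.68 (adjusted p = 0.199), did not pass. The 4 slow fibre markers summed to 2713 to 8299 CPM in control vehicle mice and to 1639 to 2468 CPM in HSALR vehicle mice, without overlap, and to 1455 to 3405 and 1109.8 to 2675 CPM with AICAR. The 3 endothelial markers summed to 208 to 234 CPM in control vehicle and 137 to 182 CPM in HSALR vehicle mice, and to 214 to 231 and 169.99 to 185 CPM with AICAR, without overlap in either treatment. The 3 erythroid markers summed to 718 to 1829 CPM in control vehicle and 304 to 515 CPM in control AICAR mice, and to 162 to 1665 and 282 to 613 CPM in HSALR mice. The 3 fibroblast markers summed to 935 to 1169 CPM in control vehicle and 726 to 922 CPM in control AICAR mice, and to 791 to 1022 and 703 to 835 CPM in HSALR mice. Both sums were apart in control mice and overlapped in HSALR mice. The 2 satellite cell markers summed to 11.9 to 23.5 CPM in control vehicle and 3.56 to 7.42 CPM in control AICAR mice, and to 28.5 to 72.2 CPM in HSALR vehicle and 3.96 to 10.8 CPM in HSALR AICAR mice. Of the 4 brown adipocyte markers 2 were tested, Cidea and Ppargc1a, the latter also a regulator above, and the list summed to 52.9 to 58.2 CPM in control vehicle and 119.6 to 223 CPM in control AICAR mice, without overlap, and to 41.4 to 86.97 and 71.99 to 113 CPM in HSALR mice. Cidea had 27 to 131 reads in every library, Elovl3 none in 8 libraries, and Ucp1 none in 15 libraries and 1 read in the other. The 5 macrophage and leukocyte markers summed to 108 to 129 CPM in control AICAR and 133 to 227 CPM in HSALR AICAR mice, without overlap, and to 108 to 149 and 128 to 173 CPM with vehicle, with overlap. The part of these fibre and cell markers in the values of the complexes was not tested.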

How the data were processed

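Stranded libraries of polyadenylated RNA from 16 muscles were sequenced, 1 per mouse. The deposited counts are whole reads per gene without normalization: per the labels and the methods, the authors mapped single-end reads to mm10 with STAR 2.5.2a, kept 1 location for reads with several equal hits, and counted with QuasR the reads starting in any RefSeq exon of a gene. Whether strand was used in counting is not given in the sources used here, so overlapping antisense genes cannot be told apart from members. The deposited gene length was used for CPM per kb and the length offset.

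Entrez identifiers were matched to RefSeq symbols (24374 of 24454). Differences were tested with edgeR 4.0.16 under R 4.3.3 (TMM, filterByExpr over the 4 groups, glmQLFit and glmQLFTest, 1 mean per group, all 16 mice), adjusted over the 15487 genes tested by the Benjamini-Hochberg method. Intervals are 95% intervals of the fit. TMM factors were 0.906 to 1.06. Shares were tested in Python 3.11.15 with scipy 1.17.1, by exact permutation of the mice. Reads on genes per library were 64890014 to 81987726, and the script was tested on simulated data. Members, gene lists and named genes (for each contrast and complex the called gene with the largest change, or else the smallest p, the isoform families, and the genes nearest to the threshold) were chosen with earlier results of these data known. Alternatives were other scalings, filters, DESeq2 1.42.0, limma 3.58.1, a gene length offset, and fits without single mice.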

Additional observations from a re-analysis of the deposited data

Results flagged for a closer look

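Over the 2 groups of 5 HSALR mice, 54 sets of 5 values were examined, many of them different quantities in the same mice, and 1 held a value that stood apart from the others. The Atp5g1 share of the reads of the 3 c subunit genes was 20.53% in the HSALR vehicle mouse S452, against 21.752 to 22.02% in the other 4 HSALR vehicle mice. With 54 sets examined, a value set apart like this can arise by chance alone. The share in S452 lay on the side away from the AICAR mice.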

How the results depend on the processing

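The AICAR direction held under every setting that was run, in that no member was called lower, while the number of calls varied. In control muscle the main count of 17 became 25 with scaling to Tbp, 24 with DESeq2 and 20 with the length offset. The shares of all genes that rose were then 13.1, 10.8 and 9.45%. The count was 9 with upper-quartile scaling, 8 with library-size scaling and 4 when only the 6 control mice were fitted. Here 6.1, 5.91 and 5.11% of all genes rose. Without the 6 Krt14 libraries (chosen after seeing the data) the median of the members was 0.18. Leaving out 1 mouse gave 7 to 17, where 4.91 to 7.21% of all genes rose. In HSALR muscle the main count of 36 became 30 with upper-quartile scaling, where 11.9% of all genes rose and 15.4% fell. It was 25 with library-size scaling, where 41 of the 46 differences were above 0, and 8.57% of all genes rose and 19.1% fell. Scaling to Tbp gave 3, where 4.5% rose and 13.4% fell. Without the Krt14 libraries, with 1 HSALR vehicle mouse left, the median of the members was 0.33. Leaving out 1 mouse gave 30 to 37, where 11.1 to 13.9% of all genes rose. Between genotypes with vehicle, the main 5 calls became 26 with scaling to Tbp, all higher, where 32.6% of all genes were higher and 1.56% lower. They became 12 with the length offset, all lower, where 13.5% were higher and 10.6% lower. With only the groups compared there were 3 (1 higher, 2 lower), where 13.2% were higher and 9.69% lower. Without the Krt14 libraries, with 1 HSALR vehicle mouse left, the median of the members was -0.012. Without 1 mouse there were 3 to 6, where 11 to 14.6% were higher and 6.98 to 11.9% lower. With AICAR the 5 calls became 3 with library-size scaling, where 10.2% of all genes were higher and 9.69% lower. They became 0 with scaling to Tbp (edgeR, 1 at an unadjusted p under 0.05), where 4.4% were higher and 4.62% lower. With the length offset there were 3, all lower, where 10.9% were higher and 9.25% lower. Without the Krt14 libraries the median of the members was 0.10. Without 1 mouse there were 1 to 5, where 8.18 to 13.2% were higher and 5.94 to 11.3% lower. Scaling to Tbp, with the median of all genes between -0.32 and 0.28, turned the sign of Sdha (0.022) and Cox8b (0.0049) between genotypes with vehicle and of the differences between AICAR effects of Sdha (-0.16), Uqcrb (-0.18), Cox7b (-0.077) and Atp5j2 (-0.17). These were not the only ones. Under that scaling 46 of the 46 vehicle differences between genotypes were above 0, beside 30 in the main fit. Of the differences between AICAR effects 0 were above 0, beside 36. The Cox6a2 share difference after AICAR in HSALR mice was -0.071 percentage points, and without 1 HSALR mouse it ran from -0.151 without S458 to 0.064 without S459. Apart from the length offset and the smaller sets of mice, the cause was not tested. The control comparison rests on groups of 3 mice. No paired analysis was possible because the mice carry identity numbers that no 2 groups share.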
